A study of Mus musculus with 36 samples.

Results

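Troponins and myosin light chains occur in skeletal muscle as separate slow and fast isoforms, and 10 of their genes are described here. The slow isoforms are Tnnt1, Tnni1, Tnnc1, Myl2, Myl3 and Tpm3, and the fast isoforms are Tnnt3, Tnni2, Tnnc2 and Myl1. They were taken by name, from a choice made with earlier results of these data known, and all 10 were found among the 46893 genes of the count table. The levels of the slow isoforms differed far more between mice of the same group than those of the fast isoforms did, and no isoform passed the adjusted limit in any comparison of groups.

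Gastrocnemius RNA was sequenced from 36 male C57BL/6 mice, 6 in each group. The animals carried no transgene or deletion, were 3 to 4 weeks old at the start and were killed after 12 weeks. Sedentary mice on the AIN93G diet formed the group NFD-C, and sedentary mice on a high-fat diet formed HFD-C. Mice of the other groups ate the high-fat diet and ran on a wheel whose brakes limited the daily distance, on average to 2.1 km/day for HFD-25%, 4.2 km/day for HFD-50% and 6.3 km/day for HFD-75%, against 8.3 km/day without a limit for HFD-U.

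Contraction is switched on when calcium binds troponin C. Troponin I then releases its hold on actin, troponin T passes the change to tropomyosin, and myosin can attach. Each myosin head carries an essential and a regulatory light chain, and slow and fast fibres use different genes for most of these parts. The gastrocnemius of the mouse is mostly fast, with slow fibres in its deep part, so the slow isoforms come from a small share of the muscle. In bulk RNA, fewer slow fibres and less slow transcript per fibre cannot be told apart.

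Promoter sequences are shown for the slow troponins T, I and C, whose transcripts moved together between mice, and for the fast troponin C as a partner. They run from 250 bases before to 50 bases after the transcript start and come from RefSeq (GRCm38.p6), where 8 of the 10 genes had an entry, and Tnnt3 and Tnni2 had none. Capitals mark matches on either strand to the E-box CANNTG or to the MCAT element CATTCC, which may overlap. The regions are chr7:4515926-4516225 on the minus strand for Tnnt1, chr1:135799171-135799470 on the plus strand for Tnni1 (the first of its 2 listed starts), chr14:31208062-31208361 on the plus strand for Tnnc1 and chr2:164779685-164779984 on the minus strand for Tnnc2.
Tnnt1: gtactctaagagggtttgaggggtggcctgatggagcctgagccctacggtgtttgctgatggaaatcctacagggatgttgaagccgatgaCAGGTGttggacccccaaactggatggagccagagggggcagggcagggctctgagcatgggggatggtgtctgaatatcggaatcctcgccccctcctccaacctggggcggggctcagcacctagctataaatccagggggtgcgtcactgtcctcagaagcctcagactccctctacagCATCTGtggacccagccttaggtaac
Tnni1: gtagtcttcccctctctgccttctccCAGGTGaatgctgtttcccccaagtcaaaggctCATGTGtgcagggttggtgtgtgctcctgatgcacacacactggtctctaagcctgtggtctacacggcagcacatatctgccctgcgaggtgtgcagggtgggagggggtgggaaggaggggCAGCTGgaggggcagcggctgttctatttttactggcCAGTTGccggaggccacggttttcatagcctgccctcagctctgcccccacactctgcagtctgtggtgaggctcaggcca
Tnnc1: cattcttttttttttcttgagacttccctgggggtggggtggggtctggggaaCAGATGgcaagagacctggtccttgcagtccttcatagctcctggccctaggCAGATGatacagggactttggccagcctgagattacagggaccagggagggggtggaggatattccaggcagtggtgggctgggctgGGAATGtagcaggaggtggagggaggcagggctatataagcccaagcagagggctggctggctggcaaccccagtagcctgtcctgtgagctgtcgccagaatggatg
Tnnc2: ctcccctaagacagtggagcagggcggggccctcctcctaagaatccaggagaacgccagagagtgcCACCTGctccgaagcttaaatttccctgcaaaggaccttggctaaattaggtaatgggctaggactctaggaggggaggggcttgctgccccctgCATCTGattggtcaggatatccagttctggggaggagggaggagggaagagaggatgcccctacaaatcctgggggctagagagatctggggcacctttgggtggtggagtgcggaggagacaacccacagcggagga
The Tnnt1 promoter held 2 E-box matches, that of Tnni1 4, and those of Tnnc1 and Tnnc2 2 each. Tnnc1 also held 1 MCAT match, and the other promoters printed here held 0. Of all 32851 promoters of this length, 72.3% held an E-box match and 14.7% an MCAT match, so an E-box in such a window is common.

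The fast isoforms were by far the more abundant. Scaled to gene length, the mean level over the 36 mice was 17140 CPM per kb for Tnnt3, 14240 for Tnni2, 13620 for Tnnc2 and 3233 for Myl1, where CPM is counts scaled to the TMM-adjusted library size. On the same scale the slow isoforms had means of 213.9 CPM per kb for Myl3, 117.4 for Myl2, 116.4 for Tnnc1, 64.36 for Tnnt1, 21.06 for Tnni1 and 20.16 for Tpm3. The slow genes together held 0.014 to 4.91% of the summed per-length level of the 10 genes in single mice, with a median of 0.826%.

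Tnnt1 encodes slow troponin T, which ties the troponin complex to tropomyosin. Its level ran from 0.302 to 117.0 CPM in NFD-C (median 3.63) and from 4.19 to 228.5 CPM in HFD-C (median 65.8). Among runners, HFD-25% had 3.53 to 313.4 CPM (median 75.7), HFD-50% 37.4 to 443.8 (median 207.4), HFD-75% 17.4 to 193.5 (median 47.7) and HFD-U 6.75 to 146.0 (median 44.6). The ranges of all 15 pairs of groups overlapped, and the highest mouse had 1470 times the level of the lowest.

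Tnni1 encodes slow troponin I, the inhibitory subunit. Its level ran from 0 to 86.2 CPM in NFD-C (median 0.993) and from 2.14 to 168.2 CPM in HFD-C (median 36.01). The runners of HFD-25% had 0.577 to 215.8 CPM (median 40.3), those of HFD-50% 21.5 to 253.1 (median 103.7), those of HFD-75% 10.3 to 123.2 (median 30.1) and those of HFD-U 4.08 to 72.1 (median 21.5). One NFD-C mouse had no count for this gene, while 2 mice had Tnnt1 under 1 CPM.

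Tnnc1 encodes the troponin C of slow and cardiac muscle, the calcium sensor. It ran from 0.277 to 132.7 CPM in NFD-C (median 1.71) and from 1.68 to 241.7 CPM in HFD-C (median 57.6). The HFD-25% mice had 0.577 to 285.4 CPM (median 67.6), the HFD-50% mice 29.1 to 368.3 (median 161.0), the HFD-75% mice 16.0 to 193.3 (median 37.7) and the HFD-U mice 4.33 to 118.3 (median 40.1). As with the other slow troponins, NFD-C held the lowest mouse and HFD-50% the highest.

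Myl2 and Myl3 encode the regulatory and the essential light chain of slow and ventricular myosin. Myl2 had group medians of 450.2 CPM in HFD-50%, 347.2 in HFD-C, 331.9 in HFD-U, 248.1 in HFD-75%, 247.8 in HFD-25% and 43.0 in NFD-C, with single mice between 2.62 and 823.3 CPM. Myl3 had medians of 271.6 CPM in HFD-50%, 205.4 in HFD-25%, 177.6 in HFD-C, 155.6 in HFD-75%, 86.3 in HFD-U and 32.2 in NFD-C, with single mice between 4.64 and 630.9 CPM. Both were highest in a mouse of HFD-50% and lowest in a mouse of NFD-C.

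Tpm3 encodes the slow alpha-tropomyosin, which lies along actin and covers its myosin sites. Its medians were 274.3 CPM in HFD-50%, 136.4 in HFD-25%, 104.2 in HFD-C, 89.4 in HFD-U, 83.1 in HFD-75% and, lowest, 26.7 for NFD-C, with single mice between 12.4 and 603.5 CPM. The same gene makes tropomyosins of cells other than muscle, and the related pseudogene Tpm3-rs7, with a mean of 113.4 counts, may share reads with it, so its values are less specific to slow fibres than those of the troponins.

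**Figure D1:**
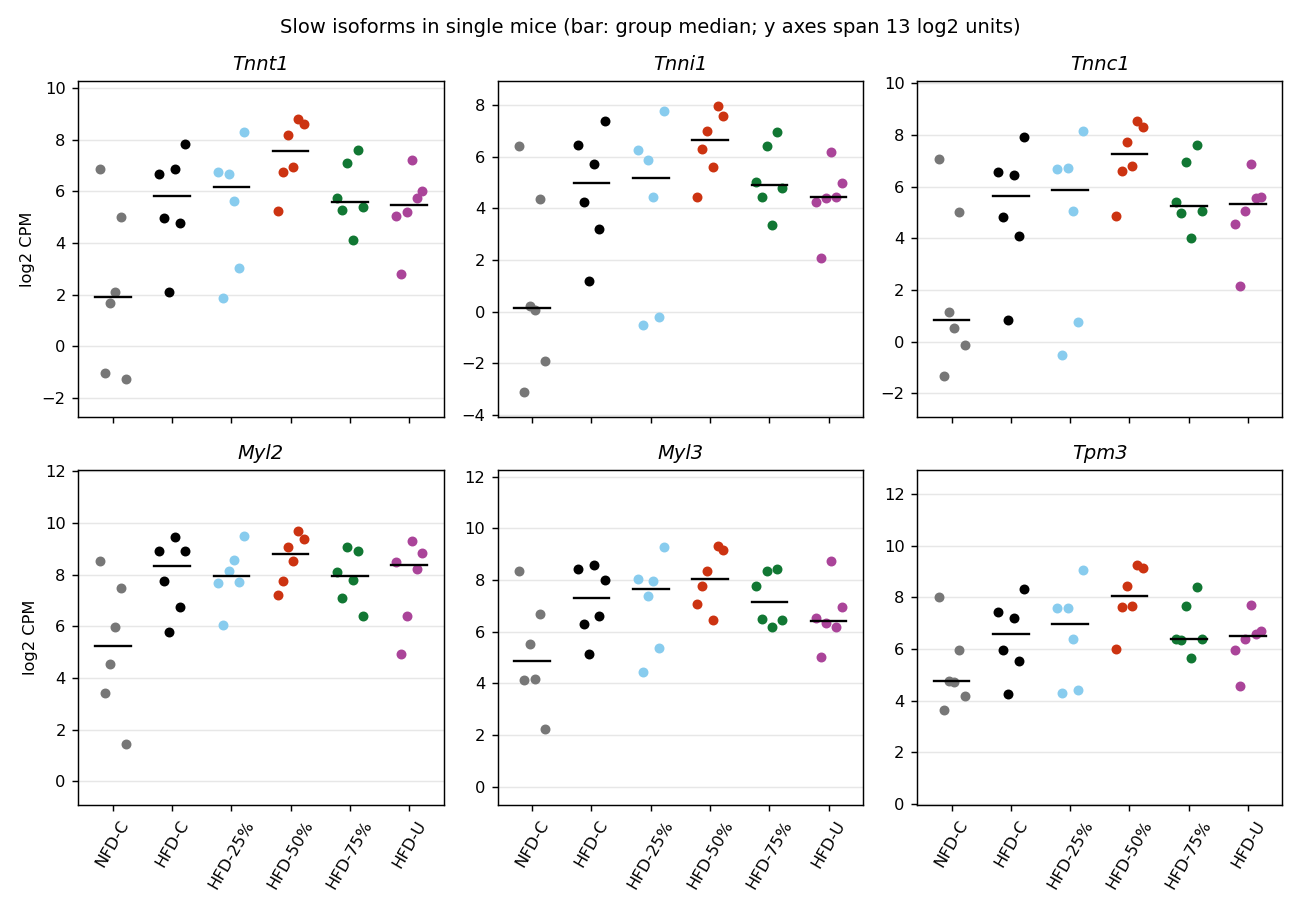
Log2 CPM (prior count 2) of the 6 slow isoforms in each of 36 mice, by group, with 1 point per mouse and a bar at the group median. All 6 genes have their highest median in HFD-50% and their lowest in NFD-C, and points of different groups overlap in every panel.

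For all 6 slow genes the mean and the median were highest in HFD-50% and lowest in NFD-C. The order of the groups between these ends was less regular, and for all 10 genes each pair of neighbours in the order overlapped in range (5 of 5 pairs). For Tnnt1, Tnni1 and Myl3 the medians ran in the order NFD-C, HFD-U, HFD-75%, HFD-C, HFD-25% and HFD-50%, which does not follow the distance run.

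The fast isoforms lay in a narrow band. Tnnt3, the fast troponin T, had 12900 to 29960 CPM over the 36 mice and group medians between 18690 in HFD-25% and 22360 in HFD-75%. Tnni2, the fast inhibitory subunit, had 6780 to 15240 CPM, and Tnnc2, the fast calcium sensor, 5660 to 13770 CPM. The highest mouse had 2.31 times the Tnnt3, 2.25 times the Tnni2 and 2.43 times the Tnnc2 of the lowest. The antisense gene Prr33, with a mean of 4012 counts, overlaps Tnnt3, whose mean count was 345500, and whether the counting used strand is not stated.

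Myl1, the essential light chain of fast myosin, varied somewhat more, by 3.36 times. It ran from 8720 to 14330 CPM in NFD-C (median 13130) and from 6910 to 14850 in HFD-C (median 10710). In the running groups its median was 8186 CPM in HFD-50%, 10100 in HFD-25%, 10400 in HFD-75% and, highest, 10540 in HFD-U, with the lowest mouse of all, at 4420 CPM, in HFD-50%. Its order was the reverse of that of the slow genes at both ends, with HFD-50% lowest and NFD-C highest. Mylpf, the fast regulatory light chain and the partner of Myl2, is usually abundant in fast muscle but had 0.179 to 2.95 CPM here, with 3 to 42 counts in a library. That value is not taken as its level, the reason for it was not tested, and no ratio of these partners is given.

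**Figure D2:**
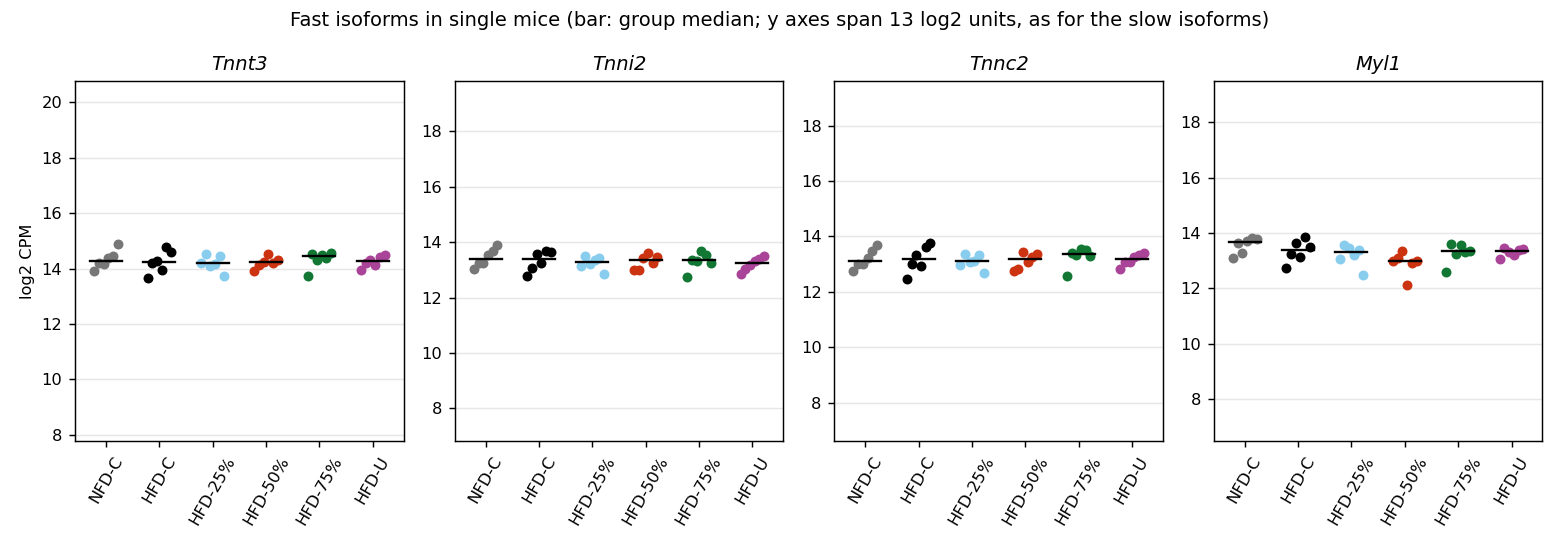
Log2 CPM of the 4 fast isoforms in each of 36 mice, by group, with a bar at the group median and y axes of the same length as for the slow isoforms. Highest and lowest mouse differ by 2.25 to 3.36 times, so the points lie close to a line in each panel.

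The spread between mice of the same group set the classes apart. The pooled SD of log2 CPM within groups was 2.46 for Tnni1, 2.43 for Tnnc1, 2.09 for Tnnt1, 1.59 for Myl2, 1.51 for Myl3 and 1.40 for Tpm3, and these genes held places 2, 3, 5, 22, 29 and 38 among the 12053 genes tested. The first place was held by Myh7, the slow myosin heavy chain, with an SD of 3.10. The fast isoforms had SDs of 0.295 to 0.351, near the median of 0.308 over all genes. The spread was uneven between groups. For the log2 ratio of Tnni1 to Tnni2 the SD was 3.79 in NFD-C, 3.70 in HFD-25% and 2.44 in HFD-C. It was 1.23 to 1.37 in HFD-50%, HFD-75% and HFD-U. The lowest Tnni1 count was 0 in NFD-C and 9 in HFD-25%, where the prior count weighs on the log2 value. The ranks are a description, and no test was made of them.

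**Figure D3:**
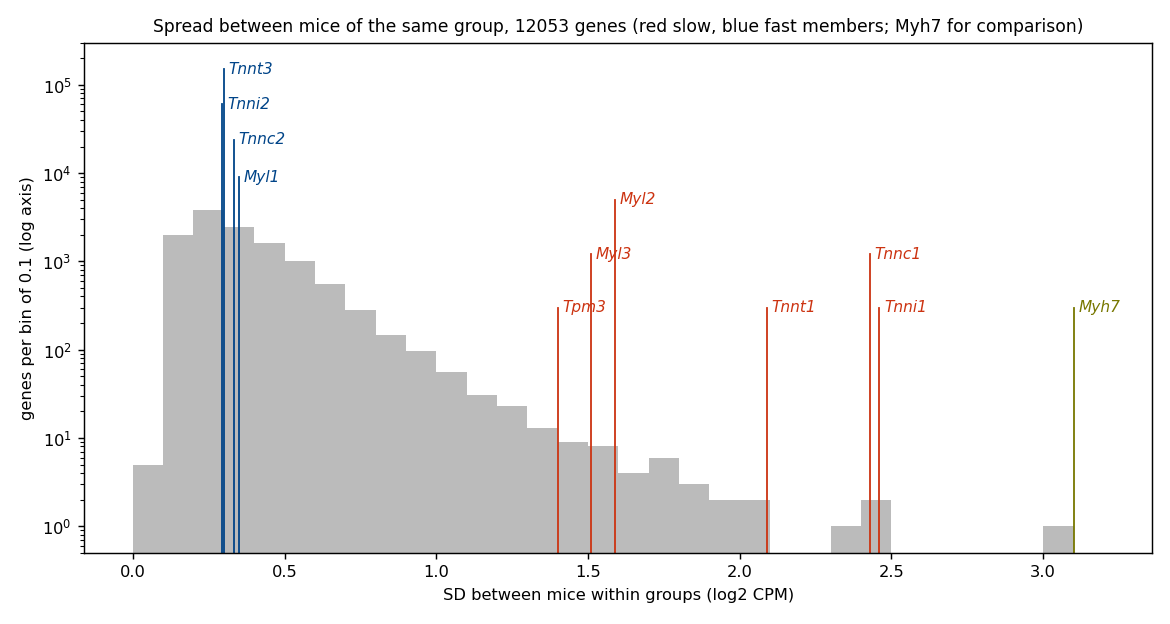
Number of genes, on a log axis, against the pooled SD of log2 CPM between mice of the same group (12053 genes, bins of 0.1). Lines mark the slow isoforms at 1.40 to 2.46, the fast isoforms at 0.295 to 0.351 and Myh7 at 3.10, and their heights carry no value.

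The slow genes moved together from mouse to mouse. Over 36 mice the Pearson correlation of log2 CPM between slow genes was 0.813 to 0.990 in 15 pairs, highest for Tnni1 with Tnnc1 and lowest for Myl2 with Tpm3. After the group means were removed it was 0.785 to 0.987. Among the fast genes it was 0.57 to 0.909 in 6 pairs. Points within a correlation share a library and its depth, and no test was made of these values.

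Ranked over 36 mice by the 6 slow genes, the lowest were NFD-C mice 2 and 6 and HFD-25% mouse 2, with slow shares of the summed per-length level of 0.0558, 0.014 and 0.0995%. The highest were HFD-50% mice 5 and 6 and HFD-25% mouse 6, with 4.15, 3.29 and 4.91%. HFD-25% thus held mice at both ends. The slow share was on average 2.14% ± 1.34 (SD, n = 6) in HFD-50%, 1.51% ± 1.75 in HFD-25%, 1.25% ± 1.05 in HFD-C, 1.05% ± 0.718 in HFD-75%, 0.836% ± 0.695 in HFD-U and 0.49% ± 0.834 in NFD-C. The SD was larger than the mean in NFD-C and HFD-25% and smaller than it in the other groups.

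Partner by partner, the log2 ratio of slow to fast per-length level was most even for the essential light chains. Myl3 over Myl1 had a mean of -4.58 ± 1.89 (SD, n = 36), Tnnc1 over Tnnc2 -8.33 ± 2.79, Tnnt1 over Tnnt3 -9.33 ± 2.60 and Tnni1 over Tnni2 -10.9 ± 2.93. Every ratio was highest on average in HFD-50%, at -3.11, -6.04, -7.16 and -8.68, and lowest in NFD-C, at -6.57, -11.2, -12.5 and -14.3.

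Whether mice with more of a slow isoform had less of its fast partner was tested for 4 pairs over 36 mice, with two-sided permutation tests of 100000 resamples and Benjamini-Hochberg adjustment over the 4 pairs. For Myl3 and Myl1 the Pearson correlation was -0.553 (permutation p = 0.00056, adjusted p = 0.00224) and Spearman's rho was -0.642 (permutation p = 0.00011, adjusted p = 0.00044). Without the 2 mice farthest from the median of Myl3 r was -0.495. With group means removed r was -0.433 (permutation p = 0.0134, adjusted p = 0.0536) and rho -0.523 (permutation p = 0.00359, adjusted p = 0.0144), so within groups the rank correlation passed the limit and the linear one did not.

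The troponin pairs did not pass. Tnnt1 and Tnnt3 had r = -0.328 (permutation p = 0.0519, adjusted p = 0.104) and rho = -0.26 (adjusted permutation p = 0.179). Tnni1 and Tnni2 had r = -0.296 (permutation p = 0.079, adjusted p = 0.105) and rho = -0.255 (adjusted permutation p = 0.179). Tnnc1 and Tnnc2 had r = -0.129 (permutation p = 0.455) and rho = -0.0507 (permutation p = 0.77). Without the 2 farthest mice their r was -0.241, -0.23 and -0.159.

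**Figure D4:**
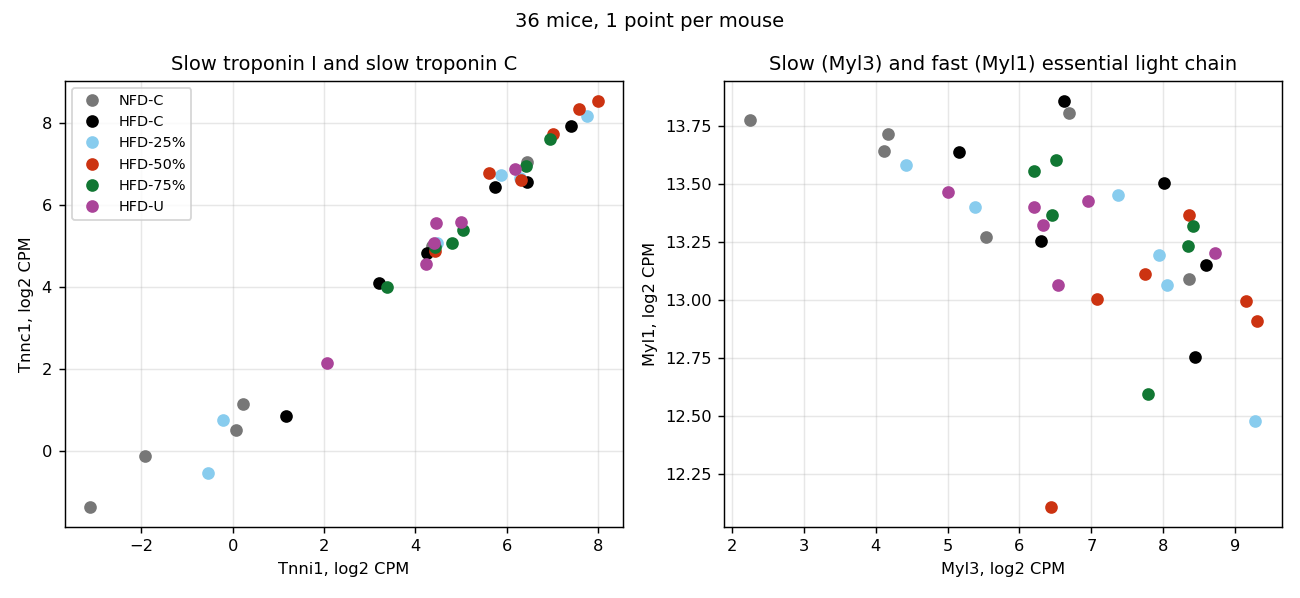
Log2 CPM of Tnnc1 against Tnni1, the closest pair of slow genes (left, r = 0.990), and of Myl1 against Myl3 (right, r = -0.553), with 1 point per mouse coloured by group. On the left mice of all groups lie along 1 line, and on the right Myl1 is lower where Myl3 is higher, with wide scatter.

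Libraries differed in depth, from 13060090 to 27981702 counts, and in the share of counts on 5 rRNA-linked features. That share was 2.01 to 3.80% in the 6 NFD-C libraries and HFD-C mice 1 to 4, and 0.404 to 1.02% in HFD-C mice 5 and 6 and all 24 running mice, so it is largely confounded with running. Among the 26 libraries of low share the correlation of Myl3 with Myl1 was -0.401, and among the 10 of high share -0.781. For Tnnt1 with Tnnt3 it was -0.245 and -0.705, for Tnni1 with Tnni2 -0.113 and -0.566, and for Tnnc1 with Tnnc2 -0.0247 and -0.552. The tissue was muscle, as labelled, since 6 muscle markers summed to 39300 to 67180 CPM. Sums over endothelial, blood, Schwann cell, tendon fibroblast, immune and adipocyte markers did not exceed 443.0 CPM in any library. These markers do not tell gastrocnemius from other muscles, and which part of the muscle each sample held was not checked.

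Groups were compared with the quasi-likelihood F-test of edgeR and Benjamini-Hochberg adjustment over all genes of each fit. A weaker limit, an unadjusted p up to 0.05, is given beside it, since the study chose its genes for enrichment analysis by an unadjusted p. At an adjusted p of at most 0.05, 0 of the 10 isoforms were called in each of 12 comparisons, and DESeq2 called 0 as well. Calls were rare among all genes too. They came to 0.0082% of genes in HFD-25% against HFD-C and 0% in HFD-50%, HFD-75%, HFD-U and NFD-C against HFD-C, and to 0.3% for all running mice against HFD-C. Against HFD-U they came to 0% for HFD-25%, 0.00844% for HFD-50% and 0% for HFD-75%. Among the 6 groups 1.45% of genes were called, by distance run over the 30 high-fat mice 0.683%, and by distance over the 24 running mice 0.0419%.

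Among the 12 comparisons, most isoforms passed the weaker limit between HFD-50% and HFD-U. These groups differ in the distance run and in whether brakes limited it. Their libraries all fall in the low set, with an rRNA-linked share of 0.559 to 1.02% in HFD-50% and 0.47 to 0.622% in HFD-U. HFD-50% and NFD-C, the ends of the order of slow medians, were not compared. Between HFD-50% and HFD-U, 5 of 10 isoforms, all slow, passed the weaker limit, against 12.4% of all genes. The slow isoforms correlated at 0.813 to 0.99 over mice, so these 5 are not separate observations and the shares cannot be weighed against each other. The log2 difference was 2.04 for Tnnt1 (SE 0.631, edgeR, adjusted p = 0.263), 2.09 for Tnni1 (SE 0.602, adjusted p = 0.247) and 2.06 for Tnnc1 (SE 0.640, adjusted p = 0.263). It was 1.79 for Tpm3 (SE 0.512, edgeR, adjusted p = 0.247) and 1.26 for Myl3 (SE 0.578, adjusted p = 0.392). Myl2, the other slow light chain, had 0.57 (SE 0.571, edgeR, adjusted p = 0.683).

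The log2 differences of the fast isoforms between HFD-50% and HFD-U were -0.35 for Myl1 (SE 0.180, edgeR, adjusted p = 0.43) and between -0.028 and 0.088 for the 3 fast troponins. The median was 1.91 over the slow and -0.022 over the fast isoforms, and 0.0194 over all 11851 genes tested. With 1 mouse left out at a time, which was added after seeing the data, 4 or 5 isoforms passed the weaker limit. Of the marker lists, 1 of 4 Schwann cell genes tested and 1 of 6 endothelial genes were higher at the weaker limit, and their part in the result was not tested.

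Against the sedentary HFD-C group, HFD-50% had positive log2 differences for all 6 slow isoforms, with a median of 1.19. Tpm3 was at 1.37 (SE 0.598, edgeR, adjusted p = 0.43) and was the only isoform past the weaker limit, against 10.7% of all genes. Tnnt1 was at 1.45 (SE 0.717, edgeR, adjusted p = 0.491), Tnnc1 at 1.28 (SE 0.784), Tnni1 at 1.09 (SE 0.765), Myl3 at 0.71 (SE 0.558) and Myl2 at 0.43 (SE 0.531). Myl1 was at -0.45 (SE 0.230, edgeR, adjusted p = 0.505). Leaving out HFD-C mouse 6, which has high slow levels, brought 4 slow isoforms past the weaker limit and Tnnt1 to 2.05, and leaving out HFD-50% mouse 5 left 0. Most HFD-C libraries differ from the HFD-50% libraries in rRNA-linked share. When the fit held a term for library set, the slow median was 0.72, with Tnni1 at 0.43, and the fast median went from -0.097 to -0.53. In the low-share libraries alone, with 2 HFD-C mice, Tnnt1 was at 0.85 and Tnnc1 at 0.55, the fast isoforms lay between -0.37 (Tnni2) and -0.74 (Myl1), and the isoforms past the weaker limit were Tnnc2 and Myl1, both lower, in place of Tpm3. In this comparison 2 of 6 endothelial genes were higher and 3 of 5 tendon fibroblast genes tested lower at that limit, and their part was not tested.

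Of HFD-25%, HFD-75% and HFD-U against HFD-C, none had an isoform past the weaker limit, against 6.98, 5.47 and 5.46% of all genes. In HFD-25% the slow isoforms lay between -0.16 and 0.42 and the fast between -0.19 and -0.099. In HFD-75% they lay between -0.24 and 0.13 and between -0.10 and 0.050. In HFD-U they lay between -0.9997 for Tnni1 and -0.15 for Myl2, and the fast between -0.15 and -0.061. SEs of the slow isoforms were 0.533 to 1.05, so differences of this size could not be told from 0. In HFD-25% the sign of the slow median turned on 1 mouse, since it was 0.15 with all mice and -0.64 without mouse 6. Without HFD-C mouse 6 the slow medians were 0.83 in HFD-25%, 0.53 for HFD-75% and -0.0018 for HFD-U.

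These counts depended on the rRNA-linked share, which is confounded with running. With the share as a covariate, 3 isoforms in HFD-25% (Tnnt3, Tnni2 and Tnnc2) and all 4 fast isoforms in HFD-U passed the weaker limit against HFD-C, all lower. The fast median then went from -0.14 to -0.54 for HFD-25% and from -0.095 to -0.50 for HFD-U. For HFD-75% 0 isoforms passed under that covariate.

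For NFD-C against HFD-C the log2 differences of the 6 slow isoforms were between -0.93 (Tpm3, SE 0.722) and -1.69 (Tnnt1, SE 1.08), with a median of -1.55, and 0 passed the weaker limit, against 4.12% of all genes. NFD-C mouse 1 decided this count. Without it all 6 slow isoforms passed the weaker limit, at -2.12 (Tpm3, edgeR, adjusted p = 0.432) to -3.64 (Tnni1, edgeR, adjusted p = 0.51), with a median of -3.00. Without HFD-C mouse 6 the median moved the other way, to -0.996, with Tpm3 at -0.40, Tnnc1 at -0.69 and Tnni1 at -0.90. With a covariate for the rRNA-linked share, 3 fast isoforms passed the weaker limit, Tnnt3 at 0.38, Tnni2 at 0.39 and Myl1 at 0.43. With all mice and no covariate the fast isoforms lay between -0.029 and 0.17. For all running mice against HFD-C the slow median was 0.26 and the fast -0.088, with 0 isoforms past the weaker limit against 9.27% of all genes.

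When the 2 HFD-C libraries of low rRNA-linked share alone stood for the sedentary mice, the values for all running mice moved. The slow isoforms then lay between -0.45 for Tnni1 and 0.29 for Myl3, with Myl2 at 0.20, and the 4 fast isoforms had log2 differences of -0.40 (Tnni2) to -0.52 (Tnnc2), each past the weaker limit, with adjusted edgeR p of 0.226 to 0.357. Only 2 sedentary mice carry this comparison.

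HFD-25% and HFD-75% against HFD-U gave 0 isoforms past the weaker limit, against 5.1 and 5.57% of all genes, with slow medians of 0.81 and 0.52 and fast medians of -0.054 and 0.11. Among the 6 groups 0 passed it, against 12.2% of all genes, with the smallest adjusted edgeR p at 0.416 for Tpm3 and 0.462 for Tnnt1. In the test of distance, linear and quadratic, over 30 high-fat mice, Tpm3 (edgeR, adjusted p = 0.407) was the 1 isoform of 10 past it, against 12.2% of all genes. Over the 24 running mice 0 of 10 were, against 8.49% of all genes.

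**Figure D5:**
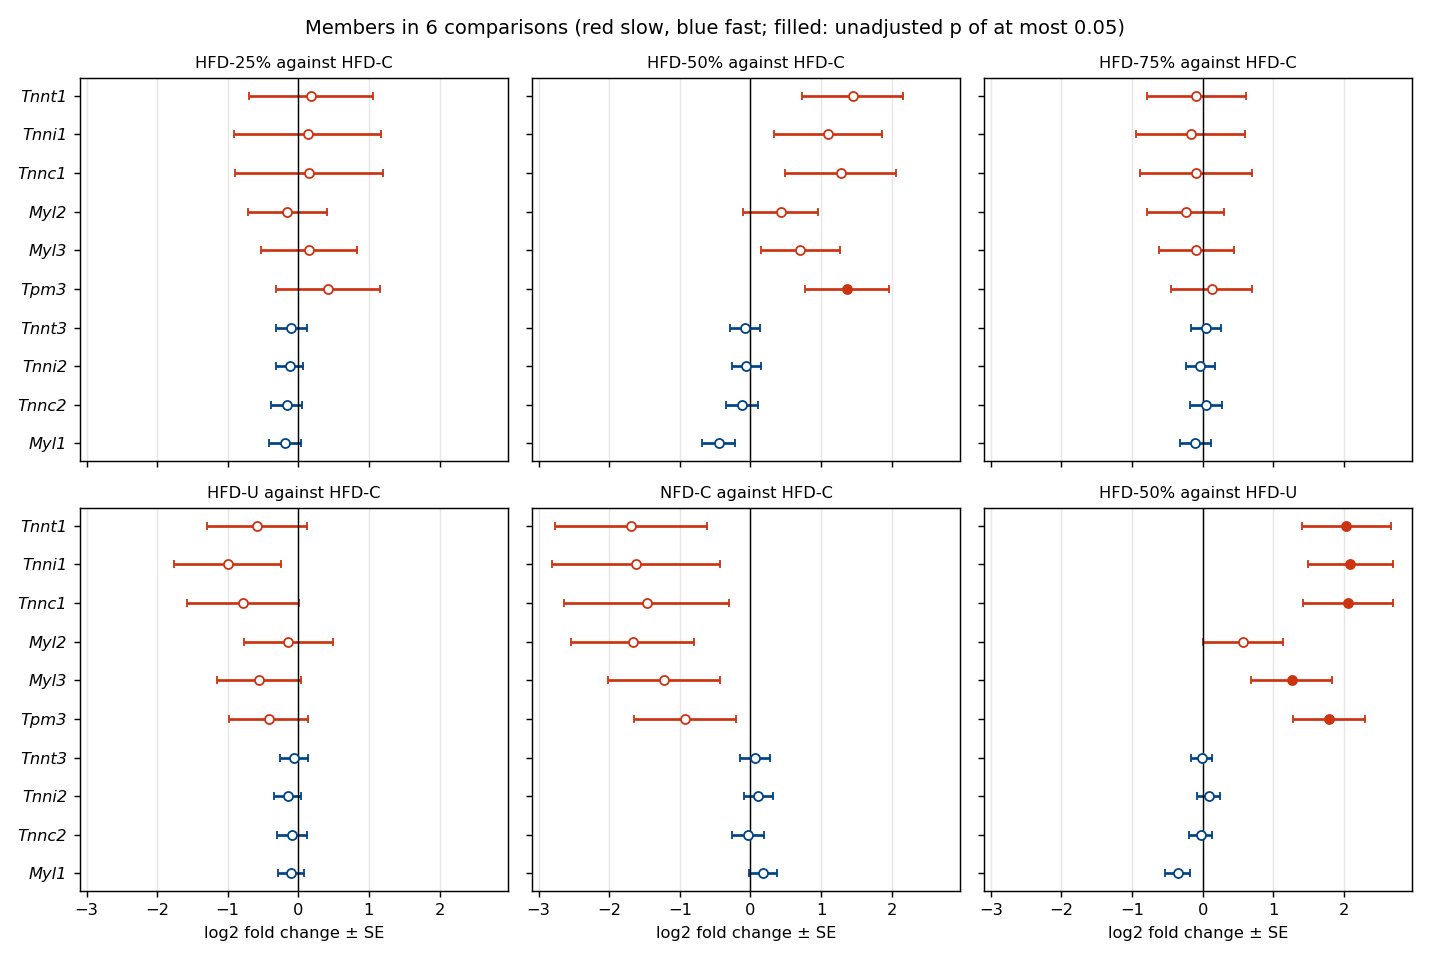
Log2 difference from edgeR ± SE, calculated from the F statistic, for the slow (red) and fast (blue) isoforms in 6 comparisons, filled where the weaker limit is passed. Filled points are Tpm3 in HFD-50% against HFD-C and 5 slow isoforms in HFD-50% against HFD-U, and none passed the adjusted limit.

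The other fibre genes were counted from lists chosen, as the isoforms were, with earlier results of these data known. Of 10 further slow fibre genes, 3 passed the weaker limit in HFD-50% against HFD-U, all higher, against 12.4% of all genes. Among them was Myh7 at 1.99 (SE 0.540, edgeR, adjusted p = 0.239). The median of the 10 was 0.396, against 1.91 for the slow isoforms. Of 10 further fast fibre genes tested, 1 was lower. Myh4, the heavy chain of the fastest fibres, was at -0.14 (SE 0.198). In HFD-50% against HFD-C the 10 slow fibre genes had a median of 0.095, against 1.19 for the slow isoforms. The lowest of them was at -0.94, and 1 passed the weaker limit, against 10.7% of all genes. None of these passed the adjusted limit in any comparison. Among the 6 groups the smallest p of the slow list were those of Myh7b, a slow-type myosin (edgeR, adjusted p = 0.14), and Myl6b, a further essential light chain (0.463), and of the fast list those of Myh1 (0.48) and Casq1, a calcium store protein (0.535).

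A single gene of these lists passed the adjusted limit. Myl4, the essential light chain of atrial and embryonic muscle, fell by 0.94 on the log2 scale in all running mice against HFD-C (SE 0.196, edgeR, adjusted p = 0.0193) and differed among the 6 groups (edgeR, adjusted p = 0.0296). Its median was 13.3 CPM in HFD-C (highest mouse 30.2) and 14.5 in NFD-C (23.1). Among runners the HFD-25% median was 7.88 CPM (highest mouse 11.5), that of HFD-50% 9.47 (13.8), that of HFD-75% 9.52 (13.9) and that of HFD-U 6.30 (10.7), and the ranges overlap. In the same comparison 3 of 5 tendon fibroblast genes tested, 2 of 3 adipocyte genes and 1 of 5 immune genes were lower at the weaker limit. The summed tendon fibroblast markers were 73.4 to 191.9 CPM in HFD-C and 30.9 to 143.3 in the running mice, the adipocyte markers 2.71 to 88.3 and 1.10 to 85.9, and the immune markers 52.1 to 93.6 and 31.8 to 98.6, with 0 genes of these lists at 0 in a whole group. Their part in the result was not tested. Actc1, the cardiac actin, of the same list as Myl4, was at 1.32 (SE 0.556, edgeR, adjusted p = 0.438), past the weaker limit in the other direction. The fall of Myl4 stayed past the adjusted limit in 8 of 8 alternatives, none of which left out a single mouse. They include the library set as a term, where only HFD-C mice 5 and 6 share the set of the runners, so that fit cannot settle the confounding. The difference among the 6 groups stayed past it in 39 of 42 alternatives, 36 of them fits without 1 mouse. Of the same list, Myh3, the embryonic heavy chain, was next among the 6 groups (edgeR, adjusted p = 0.65). Of the regulators, Myog, a transcription factor of muscle differentiation, had an adjusted edgeR p of 0.0744 and Mef2d of 0.588, and of the shared thin filament genes Lmod3 had 0.338 and Tpm2 0.497.

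Over 36 mice with group means removed, the genes most like the mean of the slow isoforms were Myh7 (r = 0.956), Atp2a2, the calcium pump of slow fibres (0.93), Myh7b (0.895), Tpm3-rs7 (0.893), Cyfip2 (0.832), Abr (0.823), Myl12a (0.816) and Pdlim1 (0.815). Within the 26 libraries of low rRNA-linked share their r was 0.747 to 0.944. Most like the fast isoforms were Aldoa, a glycolytic enzyme (0.931), Myoz1, a Z-disc protein of fast fibres (0.929), Elob (0.928) and Aamdc (0.927). The correlations describe these libraries, which the genes share, and carry no test.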

How the data were processed

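Poly(A)-selected RNA was sequenced as paired-end reads, 1 library per mouse. The authors aligned reads with HISAT2 2.0.5 and counted them with featureCounts 1.5.0-p3, and the counts per gene were deposited without normalization. The submitters' processing notes name mm10, while the chromosome accessions beside the counts are those of GRCm39, so no position from the table is given. Use of strand is not stated. Promoters are from RefSeq GRCm38.p6.

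The members and lists were chosen with earlier results of these data known. Groups came from the labels. A gene was tested where its mean count in the fit reached 25, in R 4.3.3 with edgeR 4.0.16 (TMM, quasi-likelihood F-test, two-sided), with DESeq2 1.42.0 as an alternative. Permutations were drawn with NumPy in Python 3.11.15, with ranks and Benjamini-Hochberg adjustment from SciPy 1.17.1. The SE of a log2 difference was calculated as its absolute value over the square root of the edgeR F statistic, since the test itself reports no SE. Log2 CPM had a prior count of 2. The edgeR and DESeq2 tests were also run on simulated negative binomial counts. Those had no library sets and no correlation between genes, so they do not cover these features of the data. Replicates are separate mice per the labels, and their counts differed by 16.2 to 218 times the sampling variance.

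Besides the 10 members, those named are list genes past the adjusted limit, the 2 smallest p of each list among the 6 groups, Mylpf and Myh7, and the 8 and 4 genes most like the slow and the fast members. Prr33, Tpm3-rs7, Myh4 and values of library sets were named beside these, and Myh4 was named after its values were seen.

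Mice carry numbers 1 to 6 in every group, and no source says what a number shares. Deviations of same-numbered mice correlated above 0.1 in 6 of 6 pairs for HFD-U against HFD-C (0.122 to 0.515), and in 1 to 5 of 6 in the other comparisons. Mice of different numbers were not correlated in the same way, so this does not show a pairing. The values reported for every comparison, HFD-U against HFD-C included, come from unpaired fits. Alternatives were RLE size factors, DESeq2, no minimum count, the mouse number as a block, the rRNA-linked share or library set as a term, 1 library set alone, mice 2 to 6 alone, 1 fit over all groups, and leaving out each mouse. Leaving out mice in HFD-50% against HFD-U and the medians over slow and fast members were added after seeing the data.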

Additional observations from a re-analysis of the deposited data

Results flagged for a closer look

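In CPM, single mice stood apart from the rest of their group of 6 in 11 of 60 combinations of isoform and group. In each of the 11, the gap to the nearest mouse took over 0.625 of the range of the group. A rate of 1 in 20, or 3, would hold for independent isoforms with normally distributed values. The slow isoforms are correlated and their CPM is skewed, so the excess over 3 carries no weight. On the log2 scale NFD-C mouse 1 had 6.87 for Tnnt1, the nearest mouse 5.01 and the lowest -1.26. A further 30 combinations of 5 slow to fast log2 ratios and 6 groups held 0 such mice.

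NFD-C mouse 1 was the high one for 5 slow isoforms, with 117.0 CPM of Tnnt1 (nearest mouse 32.0), 86.2 of Tnni1 (20.4), 132.7 of Tnnc1 (32.0), 326.8 of Myl3 (103.2) and 257.5 of Tpm3 (61.3). HFD-25% mouse 6 was the high one for 4, with 313.4 CPM of Tnnt1 (nearest 106.1), 215.8 of Tnni1 (77.7), 285.4 of Tnnc1 (105.6) and 534.3 of Tpm3 (190.9). HFD-U mouse 4 had 421.4 CPM of Myl3 (nearest 123.3). Among the fast isoforms, HFD-75% mouse 1 was low in Tnnc2, with 6140 CPM (nearest 9934).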

How the results depend on the processing

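The count of isoforms at an adjusted p of at most 0.05 was 0 in 89 of 89 alternatives over the 12 comparisons and in 108 of 108 fits without 1 mouse over 7 of them, and the other 5 were not refitted without single mice. The replicate block called 0 isoforms in every comparison too, and brought isoforms at an unadjusted p from 5 to 6 in HFD-50% against HFD-U, from 1 to 2 in HFD-50% against HFD-C and from 0 to 2 in NFD-C against HFD-C. In HFD-U against HFD-C, where same-numbered mice correlated, the count stayed at 0 with that block. At an unadjusted p the count of isoforms moved by over 1.5 times in 28 of 89 alternatives and 24 of 108 fits without 1 mouse, with the highest counts at 7 among the 6 groups and 6 in NFD-C against HFD-C, both without the mice numbered 1 and also without NFD-C mouse 1 alone. The number of all genes called ranged from 30 to 527 among the 6 groups (175 as reported), from 31 to 256 for distance over 30 mice (82) and from 0 to 52 over 24 (5), from 21 to 144 for all running mice (36), from 0 to 44 for HFD-25% (1), 0 to 160 for HFD-50% (0), 0 to 40 for HFD-75% (0), 0 to 28 for HFD-U (0) and 0 to 2 for NFD-C (0) against HFD-C, and from 1 to 102 for HFD-50% (1), 0 to 23 for HFD-75% (0) and 0 to 0 for HFD-25% (0) against HFD-U. Group means of the log2 ratio of summed slow to summed fast levels moved by less than their SD in 17 of 17 alternatives. Many of these could not move. A TMM factor cancels within a library, and the low-share setting keeps every library of each running group. Correlations of partners kept their side of the limit in 8 of 8 alternatives. Myl4 missed the adjusted limit among the 6 groups with a covariate for the rRNA-linked share (edgeR, adjusted p = 0.0564) and without HFD-C mouse 3 (0.0651) or 5 (0.0686). Counts of replicate mice differed by 16.2 to 218 times the sampling variance, and no comparison of the limits set by depth, spread and library set was made for the slow isoforms.

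Log2 fold changes changed sign in 68 of 710 alternatives, all at an adjusted p above 0.05 both before and after, and the cause was not tested. DESeq2 gave Myl1 at 0.00053 in HFD-75% against HFD-U. RLE size factors gave Myl1 at 0.00053 in HFD-75% against HFD-U. The libraries of a high rRNA-linked share alone gave Tnnc2 at 0.25 in NFD-C against HFD-C. The libraries of a low rRNA-linked share alone gave Tnnt1 at -0.41, Tnni1 at -0.52, Tnnc1 at -0.57, Myl2 at 0.051 and Tpm3 at -0.10 in HFD-25% against HFD-C, and Myl3 at 0.075, Tpm3 at -0.41, Tnnt3 at -0.36 and Tnnc2 at -0.40 in HFD-75% against HFD-C, and Myl2 at 0.045 in HFD-U against HFD-C, and Tnnt1 at -0.15, Tnni1 at -0.45, Tnnc1 at -0.39, Myl2 at 0.20 and Tpm3 at -0.0068 in all running mice against HFD-C. The library set as a term gave Tnnt1 at -0.43, Tnni1 at -0.53, Tnnc1 at -0.59, Myl2 at 0.036 and Tpm3 at -0.12 in HFD-25% against HFD-C, and Myl3 at 0.075, Tpm3 at -0.41, Tnnt3 at -0.36 and Tnnc2 at -0.39 in HFD-75% against HFD-C, and Myl2 at 0.044 in HFD-U against HFD-C, and Tnnc2 at 0.26 in NFD-C against HFD-C, and Tnnt1 at -0.16, Tnni1 at -0.47, Tnnc1 at -0.41, Myl2 at 0.18 and Tpm3 at -0.022 in all running mice against HFD-C. The mice numbered 2 to 6 alone gave Myl2 at 0.058 in HFD-25% against HFD-C, and Tnnt1 at 0.055, Tnni1 at 0.088, Tnnc1 at 0.080 and Myl3 at 0.083 in HFD-75% against HFD-C, and Myl2 at 0.19 in all running mice against HFD-C, and Myl2 at 0.13 and Tnni2 at -0.0095 in HFD-25% against HFD-U, and Myl1 at 0.059 in HFD-75% against HFD-U. The mouse number as a replicate block gave Tnnt1 at -0.39, Tnni1 at -0.65, Tnnc1 at -0.74, Myl3 at -0.17 and Tpm3 at -0.026 in HFD-25% against HFD-C, and Tnnt1 at 0.044, Tnni1 at 0.030, Tnnc1 at 0.032 and Myl3 at 0.012 in HFD-75% against HFD-C, and Tnnc2 at 0.0021 in NFD-C against HFD-C, and Myl2 at 0.22 in HFD-25% against HFD-U, and Myl2 at 0.20 in HFD-75% against HFD-U. A covariate for the rRNA-linked share gave Tnnt1 at -0.17, Tnni1 at -0.17, Tnnc1 at -0.28 and Myl2 at 0.15 in HFD-25% against HFD-C, and Myl2 at 0.17, Myl3 at 0.27, Tnnt3 at -0.35 and Tnnc2 at -0.33 in HFD-75% against HFD-C, and Myl2 at 0.19 in HFD-U against HFD-C, and Tnnc2 at 0.34 in NFD-C against HFD-C, and Myl2 at 0.61 in all running mice against HFD-C, and Tnni2 at -0.19 in HFD-50% against HFD-U, and Myl1 at 0.0047 in HFD-75% against HFD-U.

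Without 1 mouse at a time, the log2 fold changes that crossed 0 had these ranges. In HFD-25% against HFD-C they were -0.60 to 0.19 for Myl2, -0.67 to 0.79 for Tnnt1, -0.84 to 0.87 for Tnni1, -0.71 to 0.94 for Tnnc1, -0.46 to 0.45 for Myl3, -0.36 to 0.96 for Tpm3 and -0.20 to 0.028 for Tnnt3. In HFD-50% against HFD-C they were -0.18 to 0.051 for Tnnt3, -0.16 to 0.019 for Tnni2 and -0.24 to 0.0050 for Tnnc2. In HFD-75% against HFD-C they were -0.58 to 0.51 for Tnnt1, -0.67 to 0.68 for Tnnc1, -0.13 to 0.071 for Tnni2, -0.21 to 0.012 for Myl1, -0.34 to 0.22 for Myl3, -0.35 to 0.65 for Tpm3, -0.68 to 0.56 for Tnni1, -0.072 to 0.17 for Tnnc2, -0.060 to 0.17 for Tnnt3 and -0.51 to 0.12 for Myl2. In HFD-U against HFD-C they were -0.48 to 0.21 for Myl2, -0.16 to 0.063 for Tnnt3, -0.20 to 0.015 for Myl1, -1.14 to 0.021 for Tnnt1, -1.33 to 0.0092 for Tnnc1, -0.80 to 0.11 for Tpm3 and -0.21 to 0.034 for Tnnc2. In NFD-C against HFD-C they were -0.15 to 0.088 for Tnnc2 and -0.065 to 0.18 for Tnnt3. In HFD-50% against HFD-U they were -0.091 to 0.047 for Tnnt3 and -0.10 to 0.043 for Tnnc2.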
